A study of Gallus gallus with 6 samples.

Results

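The graded genes of the hen magnum were 10 of the 19152 genes in the count table, chosen because their levels followed one order across the 6 sequenced hens. Each of the 3 laying hens was above non-laying hen 2, non-laying hen 2 was above non-laying hen 1, and non-laying hen 1 had at least 4 times the level of non-laying hen 3. The level was given as CPM, the counts of a gene relative to the size of its library, with library sizes scaled by TMM (trimmed mean of M-values), and the mean of the laying hens was at least 10 CPM. Genes in the deposited table of 540 differentially expressed genes, genes with at least 0.02 percent of the counts in each laying hen, and ENSGALG00000012869, the most abundant gene, were left out. The choice therefore used all 6 libraries, and the differences that it fixed are given below as a description without a test.

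RNA came from the magnum of 3 laying Hy-line hens of 35 weeks, taken 3 h post-ovulation with the egg in the magnum, and of 3 non-laying Hy-line hens of between 35 and 60 weeks from different flocks, with 1 stranded mRNA library per hen. The magnum is the oviduct segment that lays the egg white around the yolk. Its tubular gland cells make the main egg-white proteins under the control of estrogen and progesterone, and the oviduct shrinks when a hen stops laying. The non-laying hens were recognised by an atrophied oviduct, so in these bulk samples fewer gland cells and less RNA per cell cannot be told apart, nor can laying state, age and flock.

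The deposited counts summed to between 24948527 and 25763750 in laying hens and to between 18840068 and 24917234 in non-laying hens. The TMM factors lay between 0.4449 and 0.6216 in laying hens, and were 1.72, 1.19 and 2.94 in non-laying hens 1, 2 and 3. By these factors alone, a gene with an equal share of the counts in every library would stand 1.92 to 2.68 times higher in laying hens than in non-laying hen 2, 1.44 times higher in non-laying hen 2 than in hen 1, and 1.71 times higher in non-laying hen 1 than in hen 3. The scaling thus puts the hens in the same order as the rule does.

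None of the 10 genes could be given a gene symbol, so no function is given for them. Symbols came only from the deposited table and the study's list of differentially expressed genes, and the rule left those genes out. The RefSeq table of the chicken holds 0 Ensembl identifiers, so it could name none of them. The identifiers of the 10 genes are those of Ensembl. The rows of the count table run along the genome, since the 540 genes with a position fall into 31 runs for 31 chromosomes or scaffolds of the Galgal 5.0 build, with rising start positions in all 31. If that order holds for every row, 8 of the 10 genes lie on a known chromosome, and the 8 chromosomes are all different. The gene lengths implied by the ratio of counts to RPKM ranged from 538.0 to 2428 bases, with a median of 1422.5 bases, against a median of 2097 bases over the 6541 genes with a mean of at least 10 CPM in laying hens.

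ENSGALG00000001437 was the most abundant of the 10, with 744.8, 435.7 and 312.4 CPM in laying hens 1, 2 and 3, against 216.5, 299.8 and 34.9 CPM in non-laying hens 1, 2 and 3. Laying hen 3 stood just above non-laying hen 2, and only non-laying hen 3 was far below the other hens. Its row lies between genes of chromosome 24, and all 6 of its estimated counts were fractional, as where reads are divided among similar genes, so its level is uncertain. The log2 fold change, laying over non-laying, was 1.44 (standard error 0.69) with TMM scaling and -0.076 on total counts.

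ENSGALG00000005541 had 217.6, 174.5 and 67.2 CPM in laying hens 1, 2 and 3, against 48.4, 53.4 and 7.22 CPM in non-laying hens 1, 2 and 3. Laying hens 1 and 2 were both well above laying hen 3, which was closer to non-laying hens 1 and 2 than to the other laying hens. With TMM scaling its log2 fold change was 2.08 (standard error 0.70), and on total counts it was 0.55. Its row lies between genes of chromosome 4.

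ENSGALG00000000901 had 119.3, 144.3 and 80.3 CPM in laying hens 1, 2 and 3, against 38.8, 70.2 and 3.68 CPM in non-laying hens 1, 2 and 3. This gene had the widest step from non-laying hen 2 to hen 1 of the 10 genes, at 1.81 times, and hen 1 was 10.5 times hen 3. Its log2 fold change was 1.61 (standard error 0.80) with TMM scaling and 0.24 on total counts. Its row falls between the last listed gene of one chromosome and the first of the next, which leaves the chromosome unknown.

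ENSGALG00000030941 had 87.9, 104.5 and 98.6 CPM in laying hens 1, 2 and 3, against 76.6, 78.6 and 13.4 CPM in non-laying hens 1, 2 and 3. Non-laying hens 1 and 2 were nearly level with each other and stood at 79.0% and 81.0% of the laying mean, so that non-laying hen 3 alone stood apart. The log2 fold change was 0.79 (standard error 0.55) with TMM scaling and -0.70 on total counts. This row lies between genes of chromosome 26.

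ENSGALG00000044789, in a row between genes of chromosome Z, had 74.6, 74.1 and 111.3 CPM in laying hens 1, 2 and 3, against 41.7, 73.8 and 9.25 CPM in non-laying hens 1, 2 and 3. Laying hens 1 and 2 and non-laying hen 2 were at one level within the counting error, and laying hen 3 was the highest. ENSGALG00000000067 had 84.7, 51.5 and 56.1 CPM in laying hens 1, 2 and 3, against 36.1, 41.4 and 6.93 CPM in non-laying hens 1, 2 and 3, with laying hen 1 the highest. The log2 fold changes of these 2 genes were 1.06 (standard error 0.60) and 1.19 (standard error 0.56) with TMM scaling, and -0.36 and -0.35 on total counts. The chromosome of ENSGALG00000000067 is not known from its row.

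ENSGALG00000030534, in a row between genes of chromosome 14, had 61.8, 52.4 and 47.3 CPM in laying hens 1, 2 and 3, against 27.7, 34.0 and 3.83 CPM in non-laying hens 1, 2 and 3. Its lowest laying hen was 1.39 times non-laying hen 2, the clearest gap between the groups among the 10 genes. ENSGALG00000017104, in a row between genes of chromosome 1, had 24.4, 24.6 and 23.7 CPM in laying hens 1, 2 and 3, against 17.0, 23.2 and 4.17 CPM in non-laying hens 1, 2 and 3. The laying hens and non-laying hen 2 were at one level within the counting error in this gene, and its 4.06-fold step from non-laying hen 1 to hen 3 was the smallest that the rule admitted. The log2 fold changes were 1.30 (standard error 0.63) for ENSGALG00000030534 and 0.72 (standard error 0.51) for ENSGALG00000017104 with TMM scaling, against -0.17 and -0.78 on total counts.

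ENSGALG00000011250, in a row between genes of chromosome 7, had 4.93, 6.74 and 20.9 CPM in laying hens 1, 2 and 3, against 3.43, 3.64 and 0.271 CPM in non-laying hens 1, 2 and 3. Laying hen 3 alone carried this gene over the limit of 10 CPM, and the value in non-laying hen 3 rests on 15 counts. ENSGALG00000000549 had 15.1, 8.55 and 8.29 CPM in laying hens 1, 2 and 3, against 5.55, 7.81 and 1.01 CPM in non-laying hens 1, 2 and 3, where laying hens 2 and 3 were within the counting error of non-laying hen 2. Its row lies on chromosome 11 between FANCA, which ends at 19054970, and CHTF8, which starts at 19157097 (Galgal 5.0). The log2 fold changes were 2.17 (standard error 0.87) for ENSGALG00000011250 and 1.16 (standard error 0.63) for ENSGALG00000000549 with TMM scaling, and 0.78 and -0.36 on total counts.

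**Figure D1:**
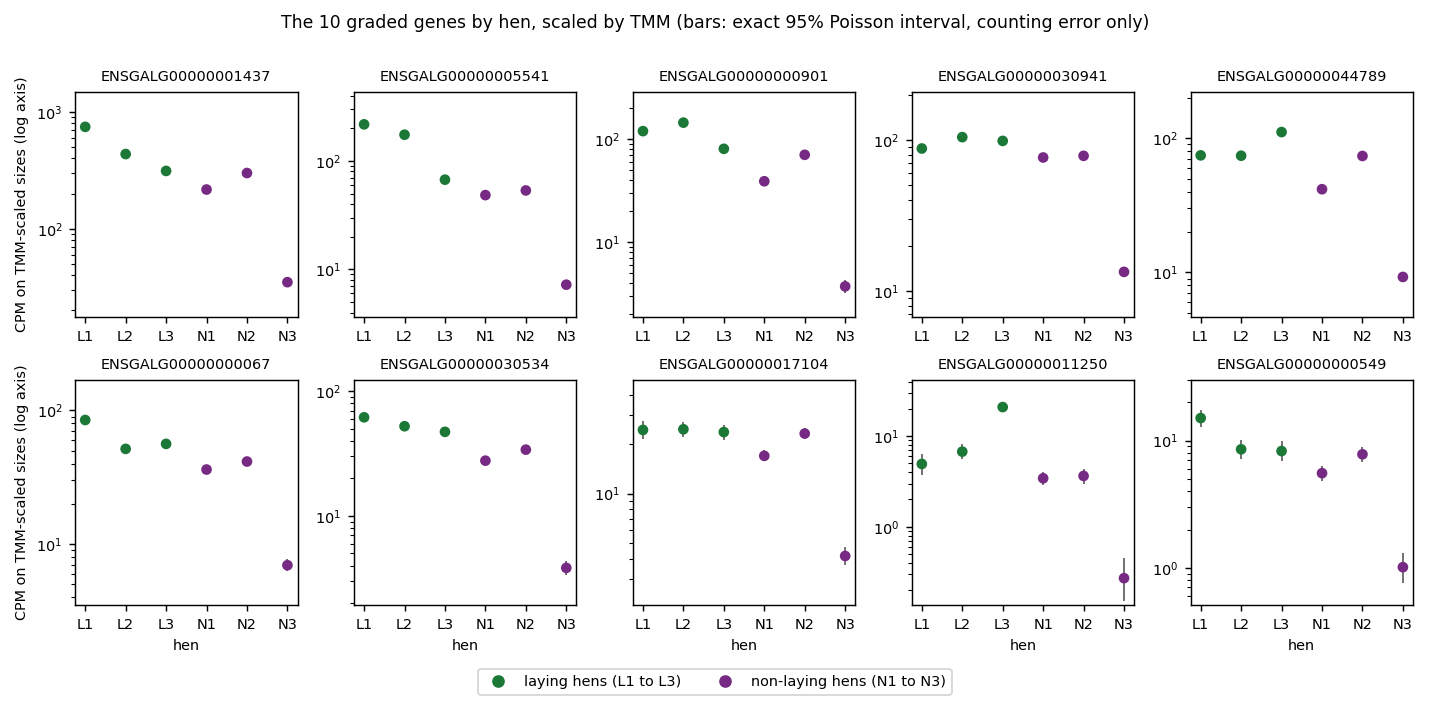
Level of each of the 10 graded genes in the 6 hens, as CPM on TMM-scaled library sizes on a log axis, with laying hens (L1 to L3) in green and non-laying hens (N1 to N3) in purple. Bars are exact 95% Poisson intervals, which cover counting error only, and non-laying hen 3 is the lowest hen in all 10 panels.

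Across the 10 genes, non-laying hen 3 had between 2.49% and 17.2% of the laying mean, with a median of 8.31%. Non-laying hen 1 had between 31.5% and 79.0% (median 49.8%), and non-laying hen 2 between 33.5% and 95.7% (median 63.9%). The ratio of non-laying hen 1 to hen 3 had a median of 5.97 and reached 12.7 in ENSGALG00000011250. The rule asked for a step of at least 4 times down to non-laying hen 3 and for any excess at the steps above it, so these unequal steps are part of the choice.

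The upper steps were within the error of counting in some of the genes. The exact 95% Poisson intervals of the lowest laying hen and of non-laying hen 2 overlapped in 5 of the 10 genes, and those of non-laying hens 2 and 1 overlapped in 2. In 6 of the 10 genes at least 1 of these 2 steps had overlapping intervals. Such intervals can overlap even where a step exceeds the counting error, so the overlap does not show that a step is unresolved. The intervals of non-laying hens 1 and 3, which the rule held apart, overlapped in 0 of the 10. The intervals describe counting error alone and leave out the spread between hens. The reads also carried no molecular identifiers, so PCR copies cannot be told from separate molecules.

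No graded gene had overlapping groups, as the rule requires, and 15.1% of all 12499 tested genes likewise had every laying hen above every non-laying hen. In edgeR's quasi-likelihood test, 0 of the 10 passed a fold change over 3 with a Benjamini-Hochberg adjusted p under 0.05, where 4.98% of the tested genes did in either direction and 1.28% with a higher level in laying hens. At an unadjusted p under 0.05 the count was 2 of the 10, against 26.5% of the tested genes in either direction and 11.4% higher in laying hens. With DESeq2, 2 of the 10 passed both thresholds, ENSGALG00000005541 and ENSGALG00000011250, beside 6.13% of the genes that it fitted, counted in either direction. By the same DESeq2 test 6 of the 10 had an unadjusted p under 0.05, where 10.1% of the fitted genes did with a higher level in laying hens. The rule used this contrast and left out the authors' called genes, so these counts only describe the 10 genes.

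The order of the hens depended on the scaling. On total counts, 0 of the 10 genes had all laying hens above non-laying hen 2, 2 had non-laying hen 2 above hen 1, and 3 had non-laying hen 1 at 4 times hen 3 or more. The mean of the laying hens was above that of the non-laying hens in 3 of the 10 on total counts, against all 10 with TMM scaling. Non-laying hen 3 was the lowest of the 6 hens in 8 of the 10 genes on total counts, with hen 1 at 2.38 to 7.41 times hen 3, which the limit of 4 times with TMM scaling carries over in large part. In ENSGALG00000017104, for example, the level on total counts was 10.8, 15.3 and 14.2 unscaled CPM in laying hens 1, 2 and 3, against 29.2, 27.6 and 12.3 in non-laying hens 1, 2 and 3, with laying hen 1 the lowest and non-laying hens 1 and 2 the highest.

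**Figure D2:**
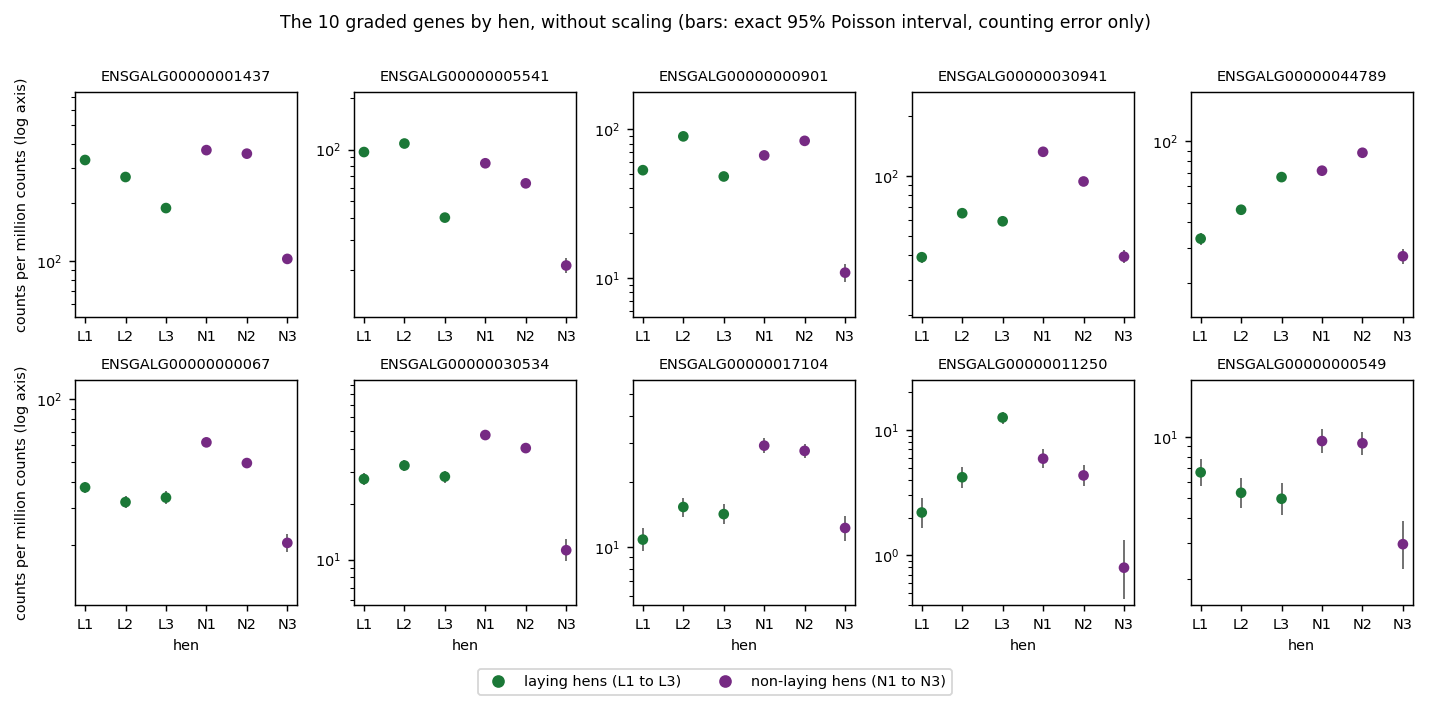
The same 10 genes as unscaled CPM, relative to the total counts of each library, on a log axis, with laying hens (L1 to L3) in green and non-laying hens (N1 to N3) in purple and exact 95% Poisson intervals as bars. Non-laying hen 3 is the lowest hen in 8 of the 10 panels, and no panel has all laying hens above non-laying hen 2.

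Removing the scaling moved the log2 fold change of all tested genes by a median of -1.81. The median log2 fold change of the graded genes, which the rule placed on the laying side, was 1.25 with TMM scaling, where the median of all tested genes was 0.00 and that of the tested genes with at least 10 CPM in laying hens was 0.20. Scaling by the size factors of DESeq2, or by TMM without the 20 most abundant genes, left the fold changes of all 10 positive.

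**Figure D3:**
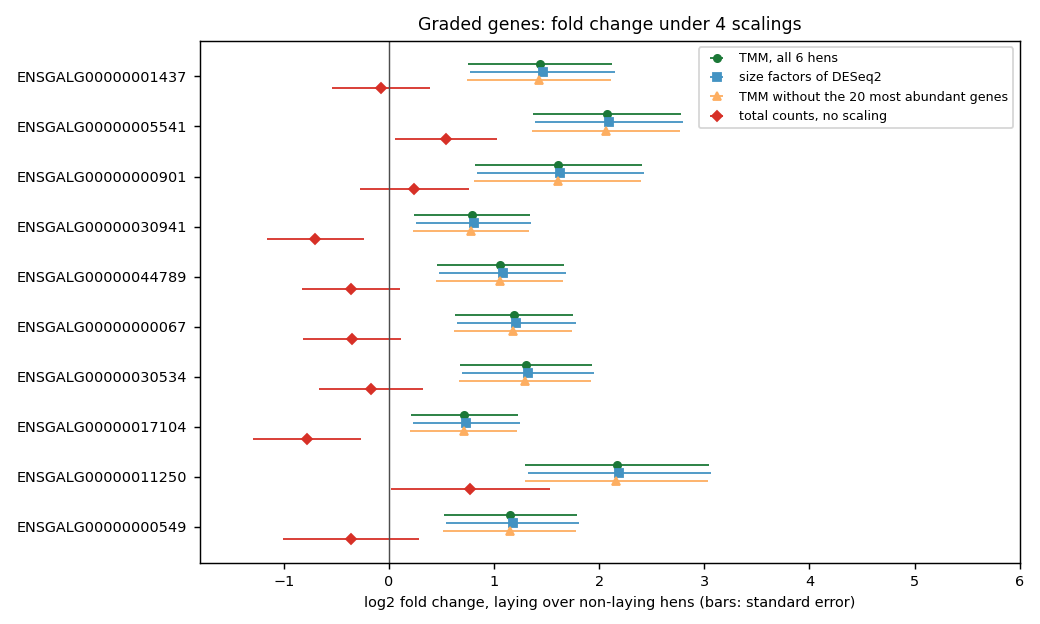
Log2 fold change, laying over non-laying hens, of the 10 graded genes in edgeR under 4 scalings of the libraries, with standard errors as bars and a line at 0. With TMM, DESeq2 size factors and TMM without the 20 most abundant genes all 10 points are above 0, and on total counts 7 of the 10 are below 0.

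Summed over the 10 genes, the level was 1435, 1077 and 826.0 CPM in laying hens 1, 2 and 3, against 511.8, 685.9 and 84.6 CPM in non-laying hens 1, 2 and 3. ENSGALG00000001437, whose level is uncertain, makes up a large part of these sums. Without it they were 690.2, 641.2 and 513.6 CPM in laying hens, against 295.3, 386.1 and 49.7 CPM in non-laying hens 1, 2 and 3. Laying hens averaged 1113 ± 306.1 CPM over the 10 genes, against 427.4 ± 309.4 CPM in non-laying hens (SD, n = 3 each). Laying hens 1, 2 and 3 spent 0.0638%, 0.0669% and 0.0495% of their counts on the 10 genes, against 0.0881%, 0.0817% and 0.0249% for non-laying hens 1, 2 and 3. The share averaged 0.0601% ± 0.00928 in laying hens, against 0.0649% ± 0.0348 in non-laying hens (SD, n = 3 each), so on this scale the groups overlapped and non-laying hen 3 alone was low.

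The rule used the laying hens through the lowest of them and through their mean, and not by which hen was which. It did not fix their order, but the choice of genes can bear on it, so the order is given as a description. On TMM-scaled levels, laying hen 3 was the lowest of the laying hens in 6 of the 10 genes and the highest in 2, whereas laying hen 1 was the highest in 5. The TMM factor of laying hen 1, 0.4449 against 0.6216 and 0.5997 in laying hens 2 and 3, raises all its levels beside theirs. On total counts laying hen 1 was the lowest laying hen in ENSGALG00000030534, at 27.5 unscaled CPM against 32.6 and 28.3 in laying hens 2 and 3. In ENSGALG00000001437 laying hen 1 stayed the highest and laying hen 3 the lowest. The highest laying hen was between 1.04 and 4.24 times the lowest, with a median of 1.72. ENSGALG00000005541 had the lowest relative level in laying hen 3, at -1.54 on the log2 scale against laying hens 1 and 2, and ENSGALG00000011250 the highest, at 1.86. The median over the 10 genes was -0.25, against -0.04 over the 6541 genes with at least 10 CPM. On total counts the median over the 10 genes was -0.06. The high value of ENSGALG00000011250 rests on laying hen 3, which also carried that gene over the limit on the mean.

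Levels per kilobase, as RPKM by the authors on unscaled totals, set the 10 genes apart by nearly 2 orders of magnitude. ENSGALG00000001437 averaged 208.3 ± 57.2 RPKM in laying hens, against 219.2 ± 119.8 RPKM in non-laying hens (SD, n = 3 each). ENSGALG00000011250 was the lowest per kilobase, at 2.69 ± 2.34 RPKM in laying hens, against 1.57 ± 1.11 RPKM in non-laying hens (SD, n = 3 each). In both genes the difference between the groups was within the spread between hens.

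The 4-fold limit lay in the tail of a continuous distribution. Without it, 1023 genes met every other condition of the rule, and their median ratio of non-laying hen 1 to hen 3 was 1.01. The 3 graded genes nearest the limit had ratios of 4.06, 4.51 and 5.20, and the 3 genes nearest below it had 3.78, 3.75 and 3.44. The gene at 3.75 had 377.9, 318.4 and 285.7 CPM in laying hens 1, 2 and 3, against 200.3, 232.2 and 53.4 CPM in non-laying hens 1, 2 and 3, the same profile as the genes inside. With a limit of 2 the rule took 52 genes, and with a limit of 8 it took 2.

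**Figure D4:**
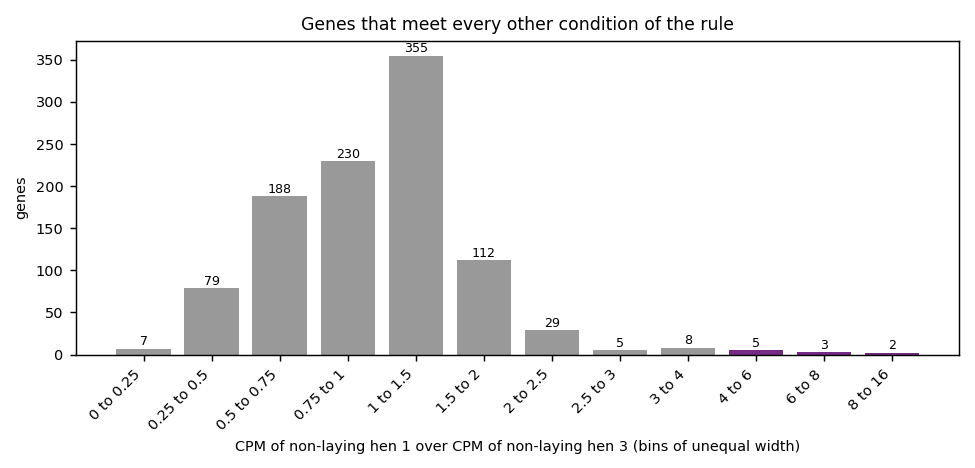
Number of genes by the ratio of CPM in non-laying hen 1 to CPM in non-laying hen 3, among the 1023 genes that met every other condition of the rule, in bins of unequal width. The 10 graded genes are the 3 purple bars from 4 upward, with 5, 3 and 2 genes, and the largest bin holds 355 genes with a ratio of 1 to 1.5.

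Among the 6541 genes with at least 10 CPM in laying hens, 1476 had every laying hen above every non-laying hen. Non-laying hens 2, 1 and 3, from high to low, was the most frequent of the 6 possible orders, with 584 of the 1476 genes or 39.6%, followed by the order 1, 2 and 3 with 336 genes or 22.8%. A middle hen at 4 times the lowest or more occurred in these 2 orders alone, in 23 and 9 genes, and in both non-laying hen 3 was the lowest. These orders were counted on TMM-scaled levels, and the TMM factors alone put the non-laying hens in the order 2, 1 and 3. The frequencies of the orders on total counts are not given here.

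The 23 genes with the order of the rule were the 10 graded genes, 9 genes of higher abundance and 4 genes of the deposited table. The 4 were named in the study's lists and were singled out here after their values were seen. MMP10 (ENSGALG00000019063), a metalloprotease that breaks down extracellular matrix, had 62.6, 102.5 and 23.8 CPM in laying hens 1, 2 and 3, against 12.7, 16.2 and 2.47 CPM in non-laying hens 1, 2 and 3. SLC7A11 (ENSGALG00000009758), which takes up cystine in exchange for glutamate, had 51.5, 66.1 and 14.9 CPM in laying hens, against 4.04, 5.56 and 0.578 CPM in non-laying hens 1, 2 and 3. In both genes laying hen 3 was the lowest laying hen on TMM-scaled levels, as it was in 6 of the graded genes.

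LOC101749151 (ENSGALG00000044388), listed as similar to a Kazal-type serine protease inhibitor, had 89.6, 70.9 and 41.8 CPM in laying hens 1, 2 and 3, against 7.95, 13.7 and 1.23 CPM in non-laying hens 1, 2 and 3. NRXN3 (ENSGALG00000010518), a neurexin and so a cell adhesion protein known from synapses, had 9.41, 17.2 and 15.04 CPM in laying hens, against 2.10, 2.22 and 0.415 CPM in non-laying hens 1, 2 and 3. In the 4 named genes non-laying hen 2 had 12.6% to 25.79% of the laying mean, and in the 9 abundant genes 10.002% to 56.8%, against 33.5% to 95.7% in the graded genes. The exclusion of called and abundant genes in part fixes this difference, and it was not tested. On total counts 5 of the 9 abundant genes still met the numeric conditions, against 0 of the 4 named genes and 0 of the 10 graded genes.

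The share of ENSGALG00000012869, to which no symbol could be given, and the levels of 4 named egg-white genes are set beside the order here, with no test. In laying hens 1, 2 and 3, ENSGALG00000012869 made up 51.5%, 49.4% and 53.6% of the library, against 19.8%, 36.5% and 1.33% in non-laying hens 1, 2 and 3, the order of the rule, whose numeric conditions this gene itself met. The TMM factors of non-laying hens 1, 2 and 3, at 1.72, 1.19 and 2.94, ran opposite to these shares. Those factors enter every CPM, so this gene and the graded genes do not share the order independently. The 4 egg-white genes that the study's lists name, of 27 on the egg-white list, had been picked as differentially expressed on these libraries. AvBD11 (ENSGALG00000019846), an antimicrobial defensin, had 118.4, 280.1 and 37.7 CPM in non-laying hens 1, 2 and 3. ORM1 (ENSGALG00000005099), a lipocalin of plasma and egg white, had 1494, 5193 and 765.4 CPM. Both ranked the hens as the rule does, but non-laying hen 1 was 3.14 and 1.95 times hen 3, short of the 4 times of the rule. Avidin (AVD, ENSGALG00000023622), the biotin-binding protein of egg white, had 2.38, 2.26 and 3.03 CPM in non-laying hens 1, 2 and 3. Clusterin (CLU, ENSGALG00000043051), a secreted chaperone, had 1225, 682.6 and 497.3 CPM. Neither avidin nor clusterin ranked the non-laying hens in that order. Whether the 10 genes follow the activity of the gland was not tested, and they are described by the rule.

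Markers of other cells could be read only as far as the lists name them, and those lists hold genes picked as differentially expressed on these libraries. Of the stromal markers, 5 of 21 had an identifier (COL3A1, COL5A1, LUM, FBLN1 and OGN), and their summed level was 300.6 to 331.6 CPM in laying hens against 2232, 1607 and 1230 CPM in non-laying hens 1, 2 and 3. The 4 of 40 markers of ciliated cells with an identifier (CCDC39, GMNC, CFAP65 and TTC29) summed to 15.3 to 25.5 CPM in laying hens, against 69.7, 74.1 and 149.0 CPM in non-laying hens 1, 2 and 3. The leukocyte marker PTPRC, 1 of 30, had 3.68 to 5.75 CPM in laying hens, against 12.1, 14.1 and 34.1 CPM in non-laying hens 1, 2 and 3. The epithelial tight junction gene CGN, 1 of 51, had 164.8 to 401.3 CPM in laying hens, against 41.1, 58.7 and 31.0 CPM in non-laying hens 1, 2 and 3. CA2, 1 of 14 red blood cell markers and also on the list of transporters, had 212.6 to 845.0 CPM in laying hens. In non-laying hens 1, 2 and 3 it had 28.3, 105.3 and 10.98 CPM. On TMM-scaled sizes, non-laying hen 3 had the highest level of the named ciliated and leukocyte markers among the non-laying hens. It had the lowest level of the stromal markers, CGN and CA2, as of every graded gene. Its TMM factor of 2.94, against 1.72 and 1.19 in non-laying hens 1 and 2, lowers all its levels beside theirs. The order of these markers on total counts is not given here, and their part in the grading was not tested.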

How the data were processed

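The authors cleaned single-end reads of 76 bp with Prinseq, aligned them to Galgal 5.0 in Array Studio version 10 and quantified genes with the Ensembl 94 annotation. The deposited estimated counts (expected counts) were not normalized, and 5.98% to 8.84% of a library's values were fractional. The RPKM values were computed by the authors per kilobase and on unscaled library totals. The authors' fold changes, p-values and group means were not used. Counts were rounded, filtered by filterByExpr (12499 genes left), scaled by TMM and tested two-sided with the quasi-likelihood test of edgeR 4.0.16 in R 4.3.3, without covariates. Standard errors of the edgeR fold changes were derived as the absolute log2 fold change over the square root of the F statistic of that test. A count of 0 allows up to about 3 counts at a one-sided 95% limit, so the depth of a library limits what can be seen. DESeq2 1.42.0 and limma 3.58.1, on log2(RPKM + 1) or log2(RPKM + 0.1), were alternatives. CPM on TMM-scaled totals, the rule, the Poisson intervals and the figures used numpy 2.4.6, scipy 1.17.1, pandas 2.3.3 and matplotlib 3.10.9 under Python 3.11.15. The fit was tested on simulated data with 200 of 12438 genes changed 6-fold, of which 198 were recovered with 4 false calls, in hens of one common profile. The changes were placed only in genes of higher counts, as many up as down, with the same spread for every gene. The simulated hens had no shift in library composition like that of these libraries, so recovery in these libraries is not known.

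The members and gene lists were chosen with earlier results of these data known. Genes named were, by rule, the 5 graded genes of highest mean CPM in laying hens. The other 5 were added after their values were seen, to account for all 10. Of 737 symbols on 20 gene lists, 36 could be paired with an identifier, at most 23.8% of a list. The pairing used only differentially expressed genes of the study, which the rule left out. No paired gene could therefore be a graded gene, and lists were not compared as sets. The RefSeq table used for names holds 0 Ensembl identifiers. Promoter and protein sequences were not analysed here.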

Additional observations from a re-analysis of the deposited data

How the results depend on the processing

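Of 10 graded genes, 0 met the rule on total counts without scaling and 0 with RPKM scaled by its sum. With the limit on the ratio of non-laying hen 1 to hen 3 at 2 or 8, 52 and 2 genes met it. With 1 hen left out, 9 to 1023 genes met the conditions that name the other hens, the highest without non-laying hen 3 (an alternative for non-laying hens that was chosen after seeing the data), 24 without non-laying hen 1, 26 without non-laying hen 2 and 20 without laying hen 3, 9 of these 20 among the 10. On total counts the log2 fold change, laying over non-laying, was reversed in 7 of the 10: -0.076 in ENSGALG00000001437, -0.70 in ENSGALG00000030941, -0.36 in ENSGALG00000044789, -0.35 in ENSGALG00000000067, -0.17 in ENSGALG00000030534, -0.78 in ENSGALG00000017104 and -0.36 in ENSGALG00000000549. With limma on log2(RPKM + 1) and log2(RPKM + 0.1), also without scaling, it was -0.55 and -0.56 in ENSGALG00000030941, -0.25 and -0.25 in ENSGALG00000044789, -0.20 and -0.21 in ENSGALG00000000067, -0.65 and -0.69 in ENSGALG00000017104, and -0.19 and -0.19 in ENSGALG00000000549. With any 1 hen left out the values lay between 0.28 and 2.59, and their sign was fixed by the choice of genes whose groups do not overlap. The difference between the groups in the summed level of the 10 genes, 0.069% of the scaled library, was -0.0048% on total counts, 0.179% without the 20 most abundant genes and -0.0065% of summed RPKM. The 0.179% is a share of smaller scaled libraries, so it does not stand for a larger difference between the groups. Their size was 4264471 in place of 11155006 in laying hen 1, and 21072193 in place of 55380773 in non-laying hen 3. The median log2 ratio of non-laying hen 2 to the laying mean was -0.65 with TMM scaling, against 0.49 on total counts and in RPKM.

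Over all genes, 623 were called in edgeR, 7896 on total counts, 1005 by DESeq2, 3845 and 7040 by limma on log2(RPKM + 1) and log2(RPKM + 0.1), 939 with no threshold on the fold, and 16 to 639 with 1 hen left out. The call count was 20 without laying hen 1, 16 without laying hen 2 and 285 without non-laying hen 1. Of the graded genes, 0 were called in edgeR, 2 by DESeq2, and 0 with any 1 hen left out. With replicate number as a block, 397 genes and 1 graded gene, ENSGALG00000005541, were called. The numbers share no animal or stated batch, the deviations of same-numbered hens correlated at 0.18, -0.07 and 0.03, and laying hen 2 correlated best with non-laying hen 3. The causes of these shifts were not tested. The depth limits the low values, where 15 counts in non-laying hen 3 stand for 0.271 CPM.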
